A study of Mus musculus with 17 samples.

Results

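The 10 genes described here encode the liver enzymes that rebuild NAD from its vitamin precursors, turn NAD into NADP, and clear surplus nicotinamide. They are Nampt, Nmrk1, Naprt, Nadsyn1, Nmnat1, Nmnat3, Nadk, Nadk2, Nnmt and Aox3, chosen by gene symbol from the 46073 genes of the expression table. Each of the 10 matched 1 gene, and none was at 0 in any library.

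Expression was measured by RNA sequencing of whole liver from 17 male C57BL/6 mice, killed 24 h after they had received acetaminophen or saline. Acetaminophen (APAP), a common painkiller, injures hepatocytes at high dose. All mice were 11 or 12 weeks old and carried 1 of 3 genotype labels at Nampt, which are +/+ (WT here), +/- (Het) and OE. The labels do not spell out OE, and they name no promoter or cell type for it. The 200 mg/kg APAP groups held 3 WT, 3 Het and 2 OE mice, and 1 further OE mouse received 300 mg/kg. The saline groups held 3 WT, 2 Het and 2 OE mice, and 1 further WT mouse had saline labelled IG. Livers were perfused in 1 Het APAP, 1 OE APAP, 2 WT saline, 2 Het saline and 1 OE saline mouse. The study's title asks whether Nampt protects the liver in this injury. Only the labels tell that libraries of a group are separate mice. The p-values measure no more than the spread between libraries, pooled over the label groups, and that may be technical. In some groups the libraries also differed in perfusion, lane or age. Replicate numbers only name the libraries.

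Values are FPKM, in which fragments are scaled to transcript length and library size, so levels of different genes are compared per length. The sequencing depth is unknown. Of the hepatocyte markers Ttr, Apoa1, Apob, Hnf4a, Cps1 and Tat, none fell below 60.5 FPKM in a library, and Alb was listed at 0 in all 17. On the first principal component of all genes tested, OE APAP 1 at -12.2 and the 300 mg/kg OE liver at -9.63 lay beyond 0 on the side of the saline livers, which ran from -31.1 to -15.8. The 7 other livers given 200 mg/kg ran from 6.36 to 63.5. On the second component OE APAP 1 at 39.0 and OE saline 2 at 38.9 stood apart from the other libraries, which ran from -18.5 to 15.5. These 2 libraries share lane L004 with the 300 mg/kg OE liver, which at -13.8 lay among the other libraries on this component. Values of OE comparisons without these 2 libraries are given beside those with them.

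Nicotinamide is released whenever sirtuins, PARPs or CD38 consume NAD, and Nampt joins it to a ribose phosphate in the rate-limiting step of salvage. Nicotinamide riboside enters through the kinase Nmrk1 and nicotinic acid through Naprt. Nmnat1 in the nucleus and Nmnat3 in mitochondria then attach the adenylate, and Nadsyn1 amidates the nicotinic acid form to NAD. Nadk in the cytosol and Nadk2 in mitochondria phosphorylate NAD to NADP. Nnmt, abundant in liver, methylates nicotinamide with S-adenosylmethionine, and mouse liver aldehyde oxidases such as Aox3 oxidise the product to pyridones for excretion.

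The promoters of 3 members are shown because their transcripts carry the results that follow: Nampt is the gene the genotype labels name, and Nmrk1 and Aox3 had the largest APAP differences of the 10. Each window runs from 250 bases before to 50 after a RefSeq start site on GRCm38.p6, plus strand, 5′ to 3′. The windows are chr12:32820085-32820384 for Nampt, chr19:18631766-18632065 for Nmrk1 and chr1:58112886-58113185 for Aox3. Capitals mark matches on either strand to the GC box (GGGCGG) or the CCAAT box (CCAAT).
Nampt: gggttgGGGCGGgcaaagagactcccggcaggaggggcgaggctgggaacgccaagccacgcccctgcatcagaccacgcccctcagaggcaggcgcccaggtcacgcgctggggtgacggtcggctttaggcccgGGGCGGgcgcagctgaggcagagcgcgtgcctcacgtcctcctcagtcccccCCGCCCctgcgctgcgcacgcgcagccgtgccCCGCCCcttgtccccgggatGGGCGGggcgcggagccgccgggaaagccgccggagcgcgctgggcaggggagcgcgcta
Nmrk1: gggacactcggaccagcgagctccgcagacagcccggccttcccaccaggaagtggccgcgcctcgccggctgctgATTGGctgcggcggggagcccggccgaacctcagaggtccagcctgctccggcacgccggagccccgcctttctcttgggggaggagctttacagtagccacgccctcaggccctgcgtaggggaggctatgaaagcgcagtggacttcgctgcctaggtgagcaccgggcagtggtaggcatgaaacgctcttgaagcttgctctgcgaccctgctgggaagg
Aox3: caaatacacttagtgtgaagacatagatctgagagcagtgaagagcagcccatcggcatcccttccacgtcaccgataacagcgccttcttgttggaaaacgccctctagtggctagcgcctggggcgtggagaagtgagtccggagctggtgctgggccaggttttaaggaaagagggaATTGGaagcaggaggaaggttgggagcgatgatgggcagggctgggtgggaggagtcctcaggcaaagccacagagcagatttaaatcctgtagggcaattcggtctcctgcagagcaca
The Nampt window held 5 GC boxes, and those of Nmrk1 and Aox3 held 1 CCAAT box each, read on the minus strand. A GC box is present in 35.7% and a CCAAT box in 37.4% of the 32851 promoter windows in the table, and these matches overlap no other motif searched. No E-box (CACGTG) and no TATA box (TATAAA), present in 7.15% and 13.6% of all windows, lay in these 3 windows. Windows were found for 7 of the 10 members, and a Nadk window was the only one of theirs with an E-box.

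Nampt lies on chromosome 12 (32819545 to 32853349, GRCm38) and is the check on the genotype labels. Under saline it had 26.0 and 23.1 FPKM in Het livers, against 18.0, 15.3 and 18.0 FPKM in WT livers. OE saline livers had 22.4 and 27.2 FPKM, and the WT liver with saline by IG had 23.4 FPKM. Both Het and both OE saline livers were thus above the 3 WT saline livers, while the IG liver lay among the Het and OE values. After APAP the 3 Het livers had 15.4, 11.3 and 15.2 FPKM, against 12.0, 10.9 and 16.8 FPKM in WT livers, so the ranges overlapped. OE APAP livers had 36.0 and 18.5 FPKM, and the OE liver given 300 mg/kg had 18.2 FPKM. All 3 exceeded the 3 WT APAP livers, OE APAP 1 by the widest margin.

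The mean Nampt FPKM of livers labelled Het was thus not below that of livers labelled WT, under saline or APAP. Under saline, Het minus WT gave 0.57 ± 0.25 on the log2(FPKM + 1) scale (SE, limma adjusted p = 0.397), and under APAP it was 0.16 ± 0.22 (limma adjusted p = 0.736). OE minus WT gave 0.47 ± 0.24 under saline (limma adjusted p = 0.902) and 1.05 ± 0.26 under APAP (limma adjusted p = 0.122). None of the 4 passed. Without OE APAP 1 the OE minus WT difference under APAP was 0.51, and without OE APAP 2 it was 1.40 (limma adjusted p = 0.035). A gene-level FPKM does not show whether reads came from the altered allele. WT, Het and OE therefore stand for libraries labelled so. In order of mean FPKM the groups ran OE APAP 27.2 ± 12.4, OE saline 24.8 ± 3.4, Het saline 24.5 ± 2.1, WT saline 17.1 ± 1.5, Het APAP 14.0 ± 2.3 and WT APAP 13.2 ± 3.1 (SD, n = 2 or 3), and the ranges of neighbours overlapped except between Het saline and WT saline.

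**Figure D1:**
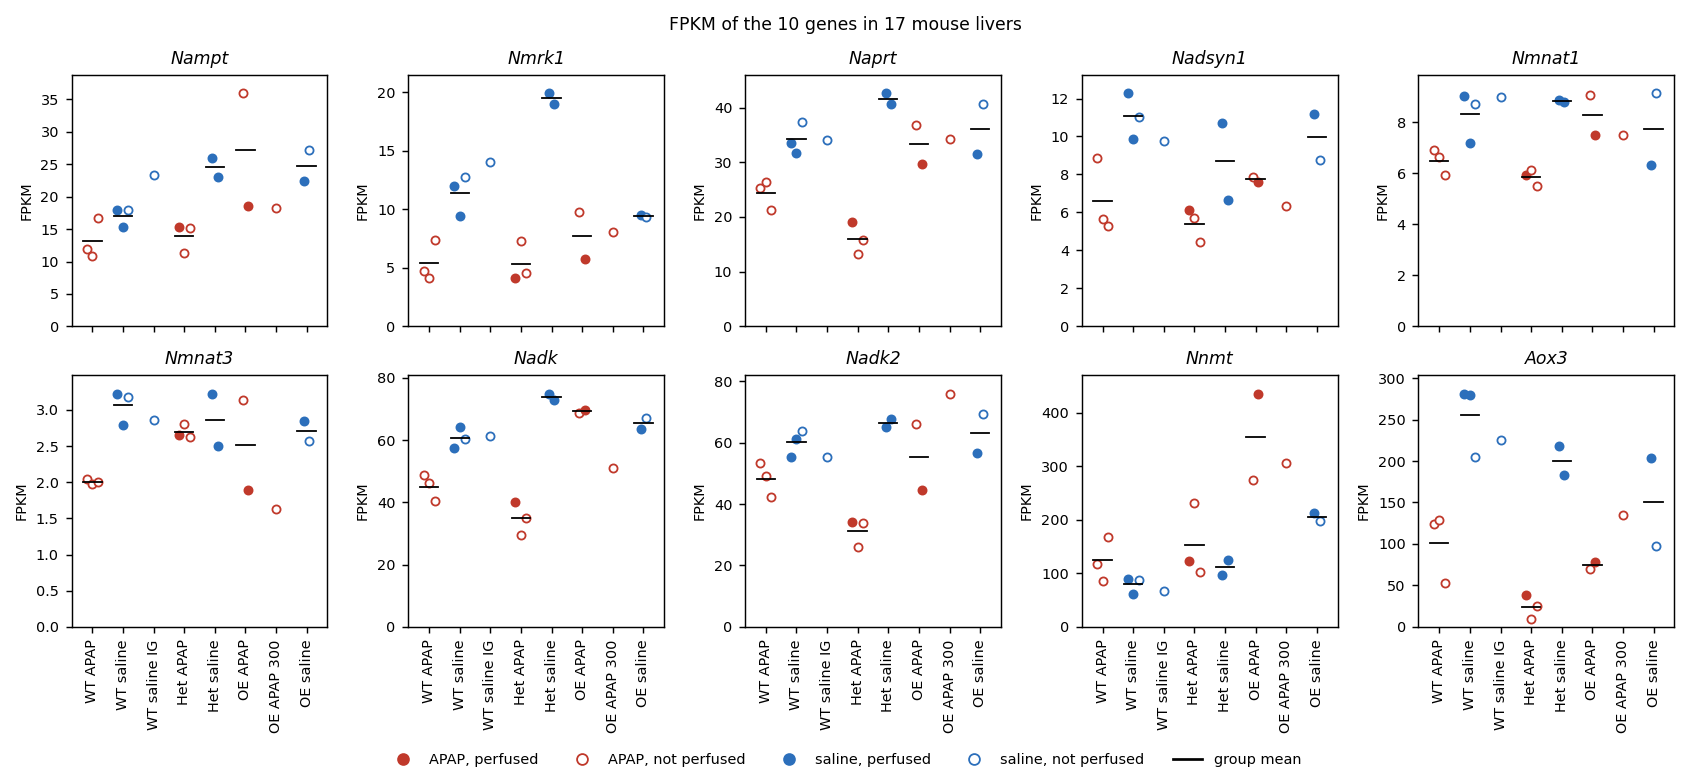
FPKM of the 10 genes in each of the 17 livers, by genotype label with APAP left of saline; points are livers, filled where perfused, and bars are means of groups with 2 or 3 livers. Het APAP livers are lowest for Aox3, at 9.20 to 38.7 FPKM, and OE livers lie at 198 to 436 FPKM for Nnmt, above every WT liver.

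Most of the pathway was lower after APAP. In the response averaged over WT, Het and OE, 7 of the 10 genes fell, namely Nmrk1, Naprt, Nadsyn1, Nmnat1, Nadk, Nadk2 and Aox3, and none rose. Of all 11101 genes tested, 13.3% fell, 9.79% rose and 23.1% changed in either direction. The median difference was -0.47 over the 10 genes and -0.02 over all genes tested, on the log2(FPKM + 1) scale, which understates changes of low genes. Nampt, Nmnat3 and Nnmt did not pass. The markers of hepatocytes around the central vein moved alongside, with 6 of 8 tested lower after APAP. Their summed level was 168 to 1429 FPKM in the 9 APAP livers and 1274 to 5021 FPKM in the 8 saline livers, and its part in the members' differences was not tested. In whole liver, fewer hepatocytes and less RNA per hepatocyte cannot be told apart.

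Nmrk1, the nicotinamide riboside kinase (chromosome 19, 18631950 to 18652428), fell most among the salvage enzymes. WT livers had 4.72, 4.12 and 7.36 FPKM after APAP, against 12.0, 9.39 and 12.8 FPKM after saline and 14.1 FPKM in the IG liver. Het livers had 4.11, 7.31 and 4.56 FPKM after APAP, against 19.9 and 19.0 FPKM after saline. OE livers had 9.79 and 5.72 FPKM after APAP and 8.08 FPKM at 300 mg/kg, against 9.55 and 9.36 FPKM after saline. The drug groups were apart in WT and Het livers and overlapped in OE livers. The averaged response was -1.15 ± 0.15 (95% interval -1.48 to -0.81, limma adjusted p = 0.000648). This call held in each of the 15 alternative settings and each of the 17 fits without 1 library. The 15 include an exact two-sided permutation test over libraries within labels, which gave an unadjusted p of 0.0025. That test held no perfusion term, though perfusion was not balanced between the drug groups.

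Naprt, which starts the nicotinic acid route (chromosome 15, 75890956 to 75894481), also fell. It had 25.4, 26.4 and 21.3 FPKM in WT APAP livers, against 33.6, 31.7 and 37.3 FPKM in WT saline livers and 34.1 FPKM in the IG liver. In Het livers it had 19.1, 13.3 and 15.8 FPKM after APAP, against 42.6 and 40.6 FPKM after saline. In OE livers it had 36.8 and 29.8 FPKM after APAP and 34.2 FPKM at 300 mg/kg, against 31.6 and 40.7 FPKM after saline. WT and Het drug groups were apart, with the wider gap in Het, and OE drug groups overlapped. Averaged over labels, the response was -0.68 ± 0.12 (limma adjusted p = 0.00224). The 3′ part of Eef1d, transcribed from the same strand at a mean of 76.6 FPKM, overlaps the 5′ part of Naprt, so reads in the shared stretch are uncertain.

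Nadsyn1, the NAD synthetase that completes the nicotinic acid route (chromosome 7, 143795584 to 143822849), was lower by a smaller margin. WT livers had 8.85, 5.67 and 5.30 FPKM after APAP, against 12.3, 9.88 and 11.0 FPKM after saline and 9.75 FPKM in the IG liver. The Het values were 6.10, 5.70 and 4.43 FPKM after APAP, against 10.7 and 6.66 FPKM after saline. The OE values were 7.86 and 7.63 FPKM after APAP and 6.33 FPKM at 300 mg/kg, against 11.2 and 8.76 FPKM after saline. Within each label every APAP liver was below every saline liver. The averaged response was -0.47 ± 0.15 (limma adjusted p = 0.0386), and it passed in 7 of the 17 fits without 1 library, with adjusted p up to 0.202. The exact permutation test within labels, which held no perfusion term, gave an unadjusted p of 0.000833, the smallest that its 1200 permutations can give.

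The enzymes that attach the adenylate differed less. Nmnat1, the nuclear enzyme (chromosome 4, 149467572 to 149485202), had 6.91, 6.63 and 5.93 FPKM in WT APAP livers, against 9.05, 7.19 and 8.70 FPKM in WT saline livers and 8.98 FPKM in the IG liver. Its Het values were 5.95, 6.11 and 5.49 FPKM after APAP, against 8.85 and 8.80 FPKM after saline. Its OE values were 9.08 and 7.51 FPKM after APAP and 7.48 FPKM at 300 mg/kg, against 6.33 and 9.14 FPKM after saline. Nmnat1 fell by 0.32 ± 0.10 in the averaged response (limma adjusted p = 0.0345), with the OE groups overlapping. This call was lost in 6 of 15 alternative settings, the permutation test among them. Its exact two-sided permutation test within labels gave an unadjusted p of 0.0608, while the 6 other passing genes ran from 0.000833 to 0.00583.

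Nmnat3, the mitochondrial enzyme (chromosome 9, 98287435 to 98420438), was the lowest of the 10 at a mean of 2.59 FPKM. WT livers had 2.05, 1.98 and 2.00 FPKM after APAP, against 3.22, 2.79 and 3.18 FPKM after saline and 2.87 FPKM in the IG liver. Het livers had 2.65, 2.80 and 2.63 FPKM after APAP, against 3.23 and 2.50 FPKM after saline. OE livers had 3.14 and 1.89 FPKM after APAP and 1.63 FPKM at 300 mg/kg, against 2.85 and 2.58 FPKM after saline. The drug groups were apart in WT and overlapped in Het and OE. The averaged response was -0.25 ± 0.10 and did not pass (limma adjusted p = 0.112).

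Both NAD kinases fell. Nadk, the cytosolic enzyme (chromosome 4, 155562378 to 155591001), had 48.8, 46.2 and 40.3 FPKM in WT APAP livers, against 57.5, 64.3 and 60.5 FPKM in WT saline livers and 61.5 FPKM in the IG liver. Het livers held 40.2, 29.6 and 34.9 FPKM of it after APAP, against 74.97 and 72.9 FPKM after saline. OE livers held 68.7 and 69.8 FPKM after APAP and 51.0 FPKM at 300 mg/kg, against 63.6 and 67.2 FPKM after saline. Both OE livers given 200 mg/kg were thus above both OE saline livers, the opposite of the order in WT and Het. Its averaged response was -0.44 ± 0.10 (limma adjusted p = 0.00923).

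Nadk2, the mitochondrial NAD kinase (chromosome 15, 9071260 to 9110891), had a like pattern in WT and Het. It stood at 53.2, 49.1 and 42.2 FPKM in WT APAP livers, against 55.3, 61.2 and 63.9 FPKM in WT saline livers and 55.5 FPKM in the IG liver. It stood at 34.2, 25.9 and 33.7 FPKM in Het APAP livers, against 65.2 and 67.6 FPKM in Het saline livers. OE values were 66.2 and 44.7 FPKM after APAP and 76.0 FPKM at 300 mg/kg, against 56.8 and 69.2 FPKM after saline. The OE groups overlapped, and the 300 mg/kg liver was the highest of all 17. Over the 3 labels Nadk2 averaged -0.60 ± 0.12 (limma adjusted p = 0.0052).

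Nnmt, the nicotinamide methyltransferase (chromosome 9, 48591877 to 48605153), had the highest mean of the 10 over the 17 livers, 164.1 FPKM against 138.5 FPKM for Aox3, and was the only one with a positive averaged response. In WT saline livers the order was turned, at 79.6 ± 15.2 FPKM for Nnmt and 255.5 ± 43.5 FPKM for Aox3 (SD, n = 3). WT livers had 118, 85.9 and 169 FPKM after APAP, against 89.0, 62.1 and 87.8 FPKM after saline and 67.8 FPKM in the IG liver. Het livers had 124, 232 and 103 FPKM after APAP, against 97.5 and 125 FPKM after saline. OE livers had 274 and 436 FPKM after APAP and 307 FPKM at 300 mg/kg, against 214 and 198 FPKM after saline. All 5 OE livers exceeded all 7 WT livers, and drug groups were apart in OE and overlapped in WT and Het. The averaged response of 0.58 ± 0.24 did not pass (limma adjusted p = 0.105), and it passed in 3 of 15 alternative settings. The exact two-sided permutation test within labels, which held no perfusion term, gave an unadjusted p of 0.02.

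Aox3, the aldehyde oxidase that acts after Nnmt (chromosome 1, 58113130 to 58200698), fell most of the 10. It had 124, 128 and 52.6 FPKM in WT APAP livers, against 281, 280 and 205 FPKM in WT saline livers and 226 FPKM in the IG liver. In Het livers it had 38.7, 9.20 and 24.7 FPKM after APAP, against 218 and 183 FPKM after saline. In OE livers it had 69.9 and 78.3 FPKM after APAP and 134 FPKM at 300 mg/kg, against 203 and 98.0 FPKM after saline. At 200 mg/kg the drug groups were apart within every label, and OE saline 2 lay below the OE liver given 300 mg/kg. The averaged response was -1.51 ± 0.29 (95% interval -2.14 to -0.88, limma adjusted p = 0.00398). It passed in the 15 alternative settings, the permutation test among them, and in the 17 fits without 1 library.

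Aox3 sits in a row of 4 aldehyde oxidase genes on chromosome 1, and its neighbour Aox1 also fell, by 1.06 ± 0.21 (limma adjusted p = 0.0049). Mean levels over the 17 livers were 138.5 FPKM for Aox3, 18.7 FPKM for Aox1, 0.0385 FPKM for Aox4 and 0.0194 FPKM for Aox2. These genes are close relatives, so the split of reads among them is uncertain. The Aox3 level was lowest, at 9.20 and 24.7 FPKM, in the 2 Het APAP livers with the lowest summed pericentral markers, 299 and 168 FPKM. The order did not follow the markers among the saline livers, since OE saline 2 had the highest sum, 5021 FPKM, and the lowest Aox3. Both Het saline livers also had higher sums, 4185 and 4078 FPKM, and lower Aox3 than WT saline 1 and 2. Among the APAP livers OE APAP 1 had the highest sum, 1429 FPKM. Its Aox3 was 69.9 FPKM, against 124 and 128 FPKM in WT APAP 1 and 2. OE saline 2 and OE APAP 1 were the libraries that stood apart on the second principal component. Ranked by sum, the other APAP livers had 168, 299, 400, 626, 631, 801, 1089 and 1131 FPKM. Their Aox3 in that order was 24.7, 9.20, 52.6, 38.7, 124, 78.3, 128 and 134.5 FPKM. The relation was not tested.

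**Figure D2:**
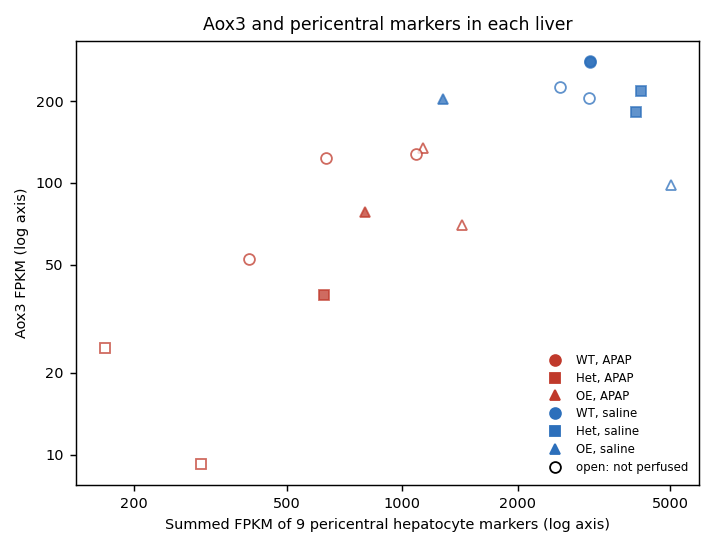
Aox3 FPKM against the summed FPKM of 9 pericentral hepatocyte markers in each of the 17 livers, both on log axes, with shape for the genotype label and open points for livers not perfused; the IG and 300 mg/kg livers carry their label's symbol, and WT saline 1 and 2 overlap. APAP livers lie at marker sums of 168 to 1429 FPKM and saline livers at 1274 to 5021 FPKM, and the 2 lowest Aox3 values belong to the 2 lowest sums.

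The count of 7 moved with some libraries left out. The share of all genes passing in those fits is not given beside it. The counts thus do not show whether these genes moved more than others. Without OE APAP 2, 3 genes passed (Nmrk1, Naprt and Aox3), and without OE saline 2, or without both OE saline 2 and OE APAP 1, 4 passed. Without OE APAP 1, 9 passed, Nampt among them at -0.53 (limma adjusted p = 0.016). With each library scaled to an equal FPKM sum, Nmrk1, Naprt and Aox3 fell and 1 gene, Nnmt, rose. That scaling moved the median of all genes by 0.13, and raised calls made up 70.7% of all calls against 42.4% without it.

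The responses of single labels were set side by side next. In WT, 1 of the 10 genes passed, Nmrk1 at -1.19 ± 0.24 (limma adjusted p = 0.0161), where 3.55% of all genes fell. The next by p were Nmnat3 at -0.51 ± 0.16 (limma adjusted p = 0.0819) and Naprt at -0.53 ± 0.18 (limma adjusted p = 0.101). The Nmrk1 call was lost without WT saline 3. Nampt at -0.52 ± 0.24 (limma adjusted p = 0.231) and Nnmt at 0.61 ± 0.37 (limma adjusted p = 0.36) did not pass. All WT APAP livers were in lane L005, and WT saline livers were in L006 or L007. Drug and lane thus cannot be told apart in WT, or in the WT part of the averaged response.

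In livers labelled Het, 7 of the 10 genes fell, where 13.1% of all genes did. Aox3 fell by 2.69 ± 0.48 (limma adjusted p = 0.0035), Nmrk1 by 1.95 ± 0.26 (limma adjusted p = 0.00104) and Naprt by 1.39 ± 0.20 (limma adjusted p = 0.00131). Nadk2 fell by 1.18 ± 0.21 (limma adjusted p = 0.00288) and Nadk by 1.02 ± 0.17 (limma adjusted p = 0.00228). Nampt itself fell by 0.93 ± 0.27 (limma adjusted p = 0.0268) and Nmnat1 by 0.64 ± 0.16 (limma adjusted p = 0.0175). Nnmt was at 0.38 ± 0.40 (limma adjusted p = 0.536). Het APAP and saline livers share lane L008, and there the 1 APAP liver against the 2 saline livers differed by -0.64 for Nampt, -2.34 for Aox3 and -1.09 for Naprt. With lane in place of perfusion 4 of the 7 passed, Nampt and Aox3 not among them, and with library-sum scaling 3 did.

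Markers of inflammatory cells were high in the Het APAP livers and in WT APAP 3. In the averaged response 6 of 9 tested monocyte and macrophage markers rose, where 9.79% of all genes did. Of the 9 neutrophil markers only 4 reached a mean of 1 FPKM over the 17 libraries, and 3 of these rose. A marker can reach that mean through the livers where it is high, so these counts are a description only. The summed monocyte and macrophage level was 217 to 331 FPKM in the 3 Het APAP livers and 307 FPKM in WT APAP 3, and 56.6 to 136 FPKM in the 5 other APAP livers, against 42.7 to 119 FPKM in the saline livers. The neutrophil sum was 80.9 to 466 FPKM in the Het APAP livers, 106 FPKM in WT APAP 3, 73.5 FPKM in OE APAP 2 and 5.76 to 16.9 FPKM in the 4 other APAP livers, against 1.94 to 9.65 FPKM after saline. Of the 9 neutrophil markers, Ly6g and Camp were at 0 in 13 of 17 libraries each, Ngp in 9, Mmp8 in 4 and Retnlg in 2. S100a8, S100a9, Csf3r and Cxcr2 were at 0 in no library. In Het APAP 1 and 2 none of the 9 was at 0. The summed hepatocyte markers were 6380 to 8513 FPKM in Het APAP livers, against 11970 and 12610 FPKM in Het saline livers. The sum was also low in WT APAP 3, at 7461 FPKM, against 11460 and 11190 FPKM in WT APAP 1 and 2. The part of these cell types in the members' responses was not tested.

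In OE, 0 of the 10 genes passed, and 0 of all genes tested did by limma, 0% of 11101. At an unadjusted p under 0.05 there were 533 genes and 0 of the 10. The largest values were -0.92 ± 0.48 for Aox3, 0.75 ± 0.40 for Nnmt and -0.32 ± 0.25 for Nadsyn1, each with a limma adjusted p of 1. Nampt was at 0.06 ± 0.26, and at -0.38 without OE APAP 1. Without OE APAP 1 and OE saline 2 the values were -1.36 for Aox3, 1.03 for Nnmt, -0.499 for Nadsyn1 and -0.26 for Nampt, which rest on 1 perfused liver of each group. The non-perfused pair gave 0.39 for Nampt.

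**Figure D3:**
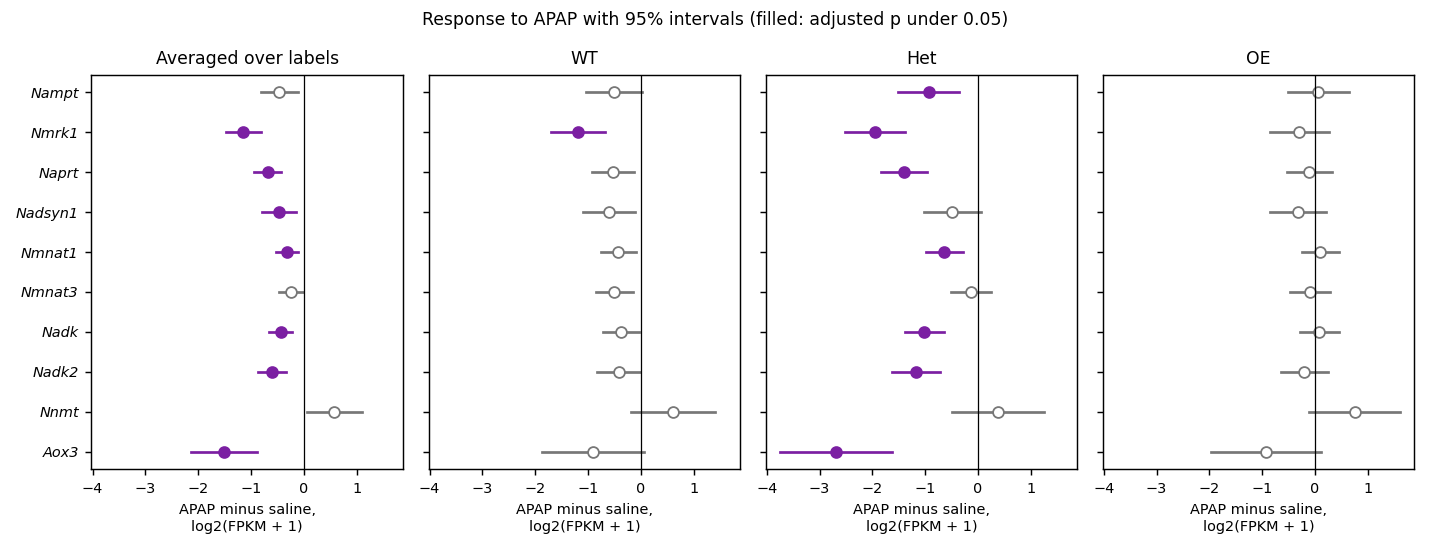
APAP minus saline difference of each gene on the log2(FPKM + 1) scale, with 95% intervals, averaged over the labels and in WT, Het and OE livers; filled points have a limma adjusted p under 0.05. Filled points number 7 in the average, 1 in WT, 7 in Het and 0 in OE.

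The difference between labels in the response was tested as such, and no gene passed. For Het minus WT response, the values with the smallest p were -0.86 ± 0.24 for Naprt, -0.65 ± 0.21 for Nadk and -1.79 ± 0.59 for Aox3, each with a limma adjusted p of 0.603. For OE minus WT response they were 0.90 ± 0.35 for Nmrk1 and 0.53 ± 0.22 for Nmnat1 (limma adjusted p = 0.805 each) and 0.45 ± 0.23 for Nadk (limma adjusted p = 0.821). Nampt was at -0.42 ± 0.32 for Het (limma adjusted p = 0.732) and 0.58 ± 0.36 for OE (limma adjusted p = 0.828), and Nnmt at -0.22 ± 0.49 for Het (limma adjusted p = 0.921) and 0.14 ± 0.54 for OE (limma adjusted p = 0.974). The share of all genes passing was 0% in both, with 916 genes for Het and 664 for OE at an unadjusted p under 0.05. Of the 10 genes, 5 were under that p for Het and 2 for OE. Without OE APAP 1 and OE saline 2 the OE minus WT response was 0.54 for Nmrk1, 0.55 for Nmnat1, 0.45 for Nadk, 0.07 for Nampt and 0.61 for Nnmt, again with no gene of the 10 passing. With libraries weighted by their spread, 4 of the 10 passed for Het. Other genes passed in that fit as well, and 36.1% of all genes passing there had positive values. The share of all genes passing there is not given, so the count is not a result about the 10 genes alone. These WT saline livers share no lane with Het or OE livers, so lane and genotype cannot be told apart in them. The comparisons also share their WT libraries.

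Genotype labels were then compared after APAP. Between Het and WT, 0 of the 10 genes passed by limma, where 0.054% of all genes did, and 5 of the 10 and 2119 of all genes had an unadjusted p under 0.05. Aox3 came nearest at -2.38 ± 0.40, with no overlap between Het and WT APAP livers (limma adjusted p = 0.0561). Its adjusted p ran from 0.00383 to 0.139 over the alternative settings. Naprt was at -0.55 ± 0.17 (limma adjusted p = 0.105), Nadk2 at -0.56 ± 0.17 (limma adjusted p = 0.113) and Nnmt at 0.26 ± 0.34 (limma adjusted p = 0.715). Lane L005 holds 2 Het and 3 WT APAP livers, and within it Aox3 differed by -2.56, Naprt by -0.71 and Nadk2 by -0.68. With lane as the covariate these 3 genes passed, Aox3 with a limma adjusted p of 0.0211. More of all genes passed in that fit too, 32.9% of them higher in Het. The share of 0.054% is not that of this fit, so the count is not a result about these 3 genes alone.

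Between OE and WT after APAP, 0 of the 10 passed by limma, where 0.00901% of all genes did, and 6 of the 10 and 1910 of all genes had an unadjusted p under 0.05. Nnmt was at 1.52 ± 0.39 (limma adjusted p = 0.124) with no overlap between the groups, and Nadk at 0.57 ± 0.16 (limma adjusted p = 0.142). Nampt, given above, had the smallest p of the 10. Without OE APAP 1 and OE saline 2 the differences were 2.13 for Nnmt, 0.46 for Nadk and 0.43 for Nampt. These rest on 1 perfused OE liver of lane L008, while the 3 WT livers were not perfused and of lane L005.

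Between OE and Het after APAP, 6 of the 10 genes were higher in OE, where 8.72% of all genes were higher. They were Aox3 at 1.65 ± 0.44 (limma adjusted p = 0.0317), Nnmt at 1.26 ± 0.37 (limma adjusted p = 0.041) and Naprt at 1.03 ± 0.18 (limma adjusted p = 0.00664). The others were Nadk at 0.97 ± 0.15 (limma adjusted p = 0.00505), Nampt at 0.89 ± 0.24 (limma adjusted p = 0.0322) and Nadk2 at 0.82 ± 0.19 (limma adjusted p = 0.0178). None passed without OE APAP 1, with lane as the covariate, with library-sum scaling, or in a fit of these groups alone. Without both OE APAP 1 and OE saline 2 they were at 1.28 for Aox3, 1.78 for Nnmt, 0.80 for Naprt, 0.88 for Nadk, 0.36 for Nampt and 0.49 for Nadk2. In lane L008, which holds 1 liver of each, the differences were 0.998 for Aox3, 1.81 for Nnmt, 0.62 for Naprt, 0.78 for Nadk, 0.25 for Nampt and 0.37 for Nadk2. Over the 17 fits without 1 library, the Nnmt call held in 5 and the other calls in 14 to 16. OE APAP 1 had the highest value of the 8 livers given 200 mg/kg at 6 of the 10 genes, and Het APAP 2 the lowest at 4.

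Under saline, 0 of the 10 passed between Het and WT and 0 between OE and WT by limma, where 0.036% of all genes passed in each. At an unadjusted p under 0.05 there were 2 of the 10 and 1314 of all genes for Het, and 1 and 661 for OE. For Het minus WT the smallest p values after that of Nmrk1, at 0.85 ± 0.24 (limma adjusted p = 0.239), were those of Nampt, given above, and Naprt at 0.31 ± 0.18 (limma adjusted p = 0.543), and Nnmt was at 0.48 ± 0.37 (limma adjusted p = 0.658). Both Het saline livers exceeded the 4 WT livers in Nmrk1. For OE minus WT, Nnmt was at 1.38 ± 0.37 (limma adjusted p = 0.471) with no overlap, and Aox3 at -0.71 ± 0.44 (limma adjusted p = 0.92). These were 1.52 for Nnmt, -0.61 for Aox3 and 0.36 for Nampt without OE APAP 1 and OE saline 2.

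**Figure D4:**
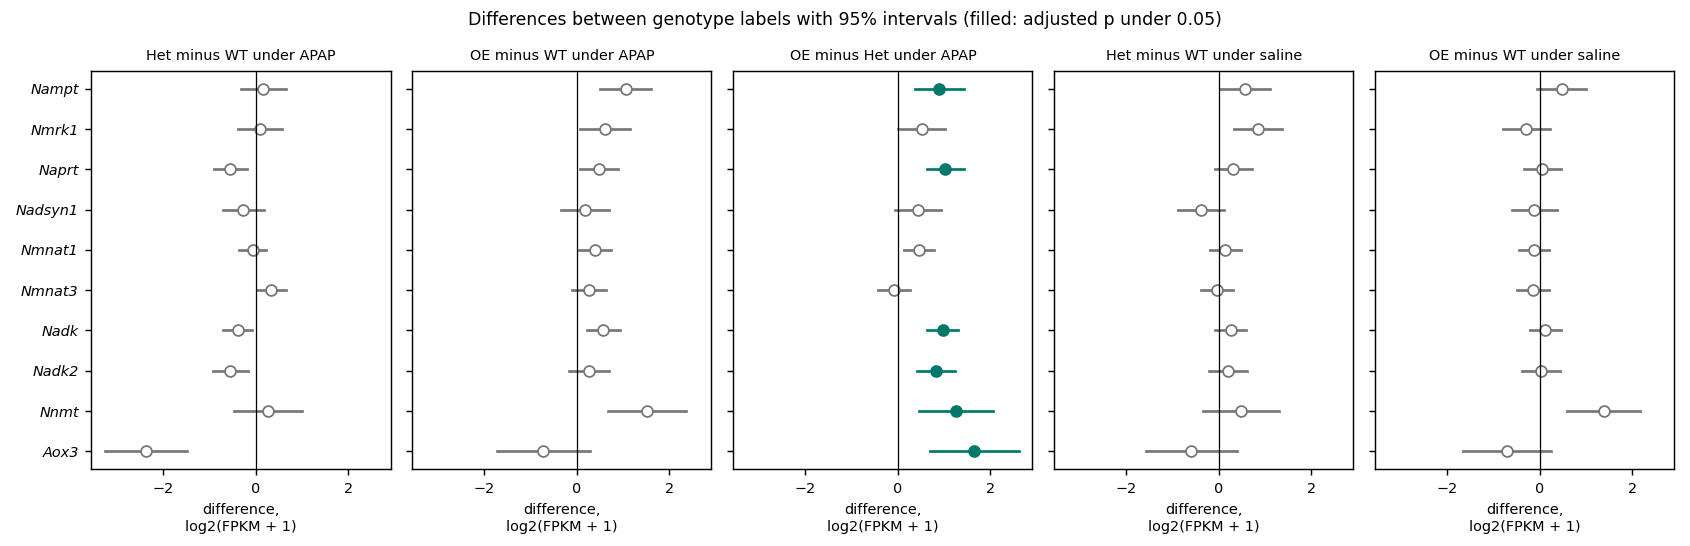
Differences between genotype labels on the log2(FPKM + 1) scale, with 95% intervals, for each gene after APAP and under saline; filled points have a limma adjusted p under 0.05. Filled points appear in OE minus Het under APAP, where 6 genes are higher in OE, and in no other panel.

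2 further comparisons, added after the values were seen, averaged each label difference over APAP and saline. For Het minus WT, Aox3 passed at -1.49 ± 0.31 (limma adjusted p = 0.0455), where 1.45% of all genes passed, and it passed in 4 of 17 fits without 1 library. For OE minus WT, Nnmt was at 1.45 ± 0.26 (limma adjusted p = 0.0513) and Nampt at 0.76 ± 0.17 (limma adjusted p = 0.0749), so 0 of the 10 passed where 0.162% of all genes did, and 4 of the 10 and 1908 of all genes had an unadjusted p under 0.05. Nnmt was at 1.83 and Nampt at 0.39 without OE APAP 1 and OE saline 2, and none passed.

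The balance of Nnmt to Nampt, the enzymes that methylate and salvage nicotinamide, was read as the ratio of their FPKM within each liver. It was 9.88, 7.88 and 10.1 in WT APAP livers, against 4.95, 4.06 and 4.89 in WT saline livers and 2.90 in the IG liver. In Het livers it was 8.04, 20.5 and 6.78 after APAP, against 3.75 and 5.41 after saline. In OE livers it was 7.63 and 23.6 after APAP and 16.8 at 300 mg/kg, against 9.54 and 7.27 after saline. APAP livers were above saline livers without overlap in WT and Het, and OE APAP 1 lay between the OE saline livers. OE saline livers were above all WT and Het saline livers. The ratio is a transcript ratio and was not tested.

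**Figure D5:**
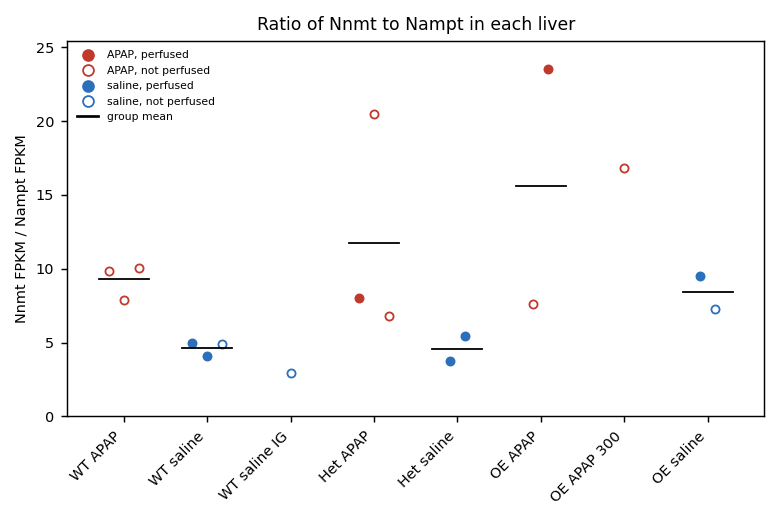
Ratio of Nnmt FPKM to Nampt FPKM in each of the 17 livers by group, filled where perfused, with bars for means of groups with 2 or 3 livers. WT and Het livers lie at 6.78 to 20.5 after APAP and at 2.90 to 5.41 after saline.

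Other genes of NAD metabolism were counted in the averaged response, in which 13.3% of all genes fell, 9.79% rose and 23.1% did either. Of the route from tryptophan to NAD, 6 of 11 tested genes fell and 1 rose, with a median of -0.61. Afmid, the kynurenine formamidase, fell by 1.79 ± 0.29 (limma adjusted p = 0.00218), Aadat by 1.40 ± 0.21 (limma adjusted p = 0.00109), the entry enzyme Tdo2 by 0.73 ± 0.15 (limma adjusted p = 0.00509) and Kmo by 0.65 ± 0.14 (limma adjusted p = 0.00618). The 1 that rose was Acmsd, which diverts the route away from NAD, at 1.28 ± 0.28 (limma adjusted p = 0.00866). Of 5 other salvage, transport and turnover genes tested, Aox1, Nt5e and Nudt12 fell and the mitochondrial NAD carrier Slc25a51 rose.

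Nnmt draws its methyl groups from S-adenosylmethionine. Of 12 tested genes that supply or use methyl groups, 5 fell and 1 rose, with a median of -0.40. Bhmt, which remethylates homocysteine, fell by 1.70 ± 0.22 (limma adjusted p = 0.000552), Ahcy by 1.30 ± 0.20 (limma adjusted p = 0.00108) and Gnmt by 1.09 ± 0.23 (limma adjusted p = 0.00587). Of 13 tested NAD-consuming enzymes, 3 fell and 1 rose, with a median of 0.05, a share near the 23.1% of all genes called. The mitochondrial deacylases Sirt3, at -0.67 ± 0.11 (limma adjusted p = 0.00157), and Sirt5, at -0.56 ± 0.15 (limma adjusted p = 0.0161), and the nucleolar Sirt7, at -0.47 ± 0.09 (limma adjusted p = 0.00315), fell. The NAD glycohydrolase Cd38 rose by 0.34 ± 0.09 (limma adjusted p = 0.0194). These lists are not independent of results already known from these data.

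Genes with the pattern most like a member's over the 17 livers were ranked by the root mean square difference of centred log2(FPKM + 1), among 6517 genes whose mean reached 5 FPKM. For Nampt they included Esrra and Stim2, at 0.213 and 0.214, where the standard deviation of Nampt itself was 0.43. For Nmrk1 they were Acbd4, Creb3l3 and Abhd6, at 0.298 to 0.340, against its own 0.62. For Nnmt they were Sdsl, Rgs5 and Apoc2, at 0.403 to 0.535, against its own 0.783. The libraries share drug, perfusion and lane, so likeness is a description only.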

How the data were processed

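Liver RNA of 17 mice was sequenced with a stranded total RNA kit and paired reads of 101 cycles, per the labels' protocols. The submitters' processing notes name the build GRCm38.p5 and the tools TopHat2 2.0.9, Cuffdiff, Cufflinks 2.2.1 and bcl2fastq 2.17.1.14. The authors deposited 1 FPKM value per gene and library; the unit was inferred from the tools and the values, since no header names it. Depth is unknown. Summed FPKM ran from 466883 to 916006 per library, and 10631 to 11496 genes reached 1 FPKM.

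From these values, log2(FPKM + 1) was fitted with limma 3.58.1 (statmod 1.5.0, R 4.3.3) for the 11101 genes whose mean over the 17 libraries reached 1 FPKM, all 10 members among them. The fit held 8 label groups, a perfusion term, a trended and robust variance prior and 8 residual degrees of freedom, and was tested on simulated data. P-values were adjusted over all genes tested by the Benjamini-Hochberg method at 0.05. Perfusion follows lane, so they cannot be told apart. The single IG liver and the single 300 mg/kg liver each formed a group. Genes at 0 throughout a genotype and drug block with a mean of at least 10 FPKM elsewhere (89), and neighbours within 100 kb at 0 in the same blocks (7), were left out as failed estimates, a rule chosen after seeing the data that touched 0 members.

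The members and lists were chosen with earlier results of these data known. All 10 members are named in the averaged response. In other comparisons Nampt, Nnmt, the 3 members with the smallest p and every passing member are named, and of each pathway list up to 4 genes with the smallest p. A few genes so selected are not reported here. Acmsd falls outside this rule and was chosen after its value was seen. Gene positions are from GENCODE on GRCm38, and promoters from RefSeq on GRCm38.p6. Marker lists for further liver cell types were read as well. In the averaged response 0 of 8 tested Kupffer markers passed by limma and 2 had an unadjusted p under 0.05, 1 of 9 endothelial markers rose and 2 fell, 4 of 9 stellate and matrix markers rose and 2 fell, 1 of 2 cholangiocyte markers rose, 1 of 3 erythroid markers fell, 3 of 8 periportal markers fell, 2 of 7 hepatocyte markers fell, and 0 lymphocyte markers were tested.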

Additional observations from a re-analysis of the deposited data

How the results depend on the processing

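Of the 130 pairs of member and comparison, the 65 chosen by the naming rule were recomputed under every setting that could be fitted. This gave 2131 values, of which 2118 kept their direction and 13 changed sign, none of them in the averaged response. These 13 were of Nampt or Nnmt and none passed. The other 65 pairs were recomputed only within perfusion states and lanes, where 10 of 88 values changed sign. In non-perfused livers alone the OE response was 0.0593 for Nmrk1, 0.210 for Nmnat3 and -0.00862 for Nmnat1, against -0.296, -0.102 and 0.103 over all libraries. There OE minus Het under APAP was 0.155 for Nmnat3, against -0.0764, and the OE minus WT response was 0.633 for Aox3, against -0.0128. The 5 others, in OE minus WT under saline or over both drugs, were of 0.0639 or less in size. The Nampt response in OE was -0.131 with the single libraries pooled into their nearest groups, -0.262 without OE saline 2 and OE APAP 1, in perfused livers alone and in lane L008 alone, and -0.381 without OE APAP 1. The Nnmt Het minus WT difference under APAP was -0.168 without Het APAP 2. The Nnmt Het minus WT response was 0.0607 with library-sum scaling, 0.0306 without Het APAP 3 and 0.0221 without WT APAP 3. The Nnmt OE minus WT response was -0.0448 with quantile normalisation, -0.158 without OE APAP 2, -0.0956 without WT APAP 2 and -0.0379 without WT saline 3. Without 1 library at a time, these 4 ran from -0.381 to 0.507, -0.168 to 0.548, -0.596 to 0.0306 and -0.158 to 0.681, in that order. The cause was not tested.

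Counts of members passing moved as follows. Calls among all genes also moved between settings, and their shares are not given beside these counts or those of the next paragraph. The counts thus describe the settings and do not set these genes against others. In the averaged response, 7 became 4 with library-sum scaling and 4 without OE saline 2 and OE APAP 1. In the WT response, 1 became 0 with no filter on low values, 0 in a fit of these groups alone, 2 with no perfusion term and 2 with single libraries pooled. In the Het response, 7 became 4 with lane, 3 with library-sum scaling and 2 in a fit of these groups alone. In Het minus WT under APAP, 0 became 1 with a pseudocount of 0.1, a mean of at least 5 FPKM, quantile normalisation or the failed genes kept in, 3 with lane and 4 with array weights. In OE minus Het under APAP, 6 became 3 with no filter on low values, 2 with quantile normalisation, and 0 with lane, library-sum scaling, these groups alone, or without OE saline 2 and OE APAP 1. With array weights, 0 became 3 in Het minus WT under saline and 4 in the Het minus WT response. In the added Het minus WT comparison over both drugs, 1 became 4 with array weights and 0 with no filter on low values, no perfusion term, library-sum scaling, single libraries pooled, these groups alone, or without OE saline 2 and OE APAP 1. In the added OE minus WT comparison over both drugs, 0 became 1 with a pseudocount of 0.1, a mean of at least 5 FPKM, library-sum scaling, single libraries pooled, or the failed genes kept in.

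Without 1 library at a time, the counts ran from 3 to 9 in the averaged response, 0 to 2 in WT, 5 to 7 in Het, 0 to 3 in Het minus WT under APAP, 0 to 1 in OE minus WT under APAP, 0 to 6 in OE minus Het under APAP, 0 to 2 in the added Het comparison and 0 to 1 in the added OE comparison. Where a group then held 1 library, that library was assumed to vary like the other groups. With lane as a term, the averaged response, the WT response, differences from WT under saline and the differences between responses could not be fitted. No paired analysis was possible because the labels give no replicate numbers shared across groups. Groups of 2 and 3 and the unknown depth limit the precision.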
